A study of Mus musculus with 30 samples.

Results

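The mitochondrial respiratory chain is built of 5 protein complexes. Complex I takes electrons from NADH and complex II from succinate, complex III passes them to cytochrome c, complex IV hands them to oxygen, and complex V (ATP synthase) makes ATP from the proton gradient that complexes I, III and IV set up. A few subunits are encoded by mitochondrial DNA, and all others are encoded in the nucleus, translated in the cytosol and imported. Brown adipose tissue is packed with mitochondria whose uncoupling protein lets protons return without making ATP, so the chain there serves heat production, whereas liver uses it largely for ATP and white adipose tissue has few mitochondria per cell.

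The nuclear genes of the chain were taken from the expression table by name: 100 of its 41549 rows begin with Nduf, Sdha to Sdhd, Uqcr, Cox4 to Cox8 or Atp5, and 93 of them were kept. Left out were 2 rows ending in -ps, 3 rows with a mean value under 1 in all 3 tissues (Cox7b2, Cox8c and 1 of the rows named Atp5o) and, by the rule, Cox7a1 and Cox8b, the isoforms of muscle and brown fat. The 93 genes comprise 44 of complex I (7 core subunits, 29 accessory subunits and 8 assembly factors), 8 of complex II (4 subunits and 4 assembly factors), 8 of complex III, 16 of complex IV (11 subunits, 4 alternative isoforms and the supercomplex factor Cox7a2l) and 17 of complex V. They are spread over 19 chromosomes, with 8 on chromosome 2 and Ndufa1, Ndufb11 and Cox7b on the X. They are short genes in transcript terms: the median coding length was 429 bases, against 1341 bases over 13910 other protein-coding genes, while median GC content was nearly equal (50.55% and 50.62%).

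The libraries came from male mice on the C57BL/6J background, either WT or lacking liver fatty acid-binding protein in the whole body (LFABP-/-, a null allele of Fabp1). Both genotypes were fed the same high-fat diet, with 45% of energy as fat rich in saturated fatty acids, for 12 weeks from 2 months of age, and were killed after 4 h without food, so that no lean-diet group enters here. From each of 5 WT and 5 LFABP-/- mice a white depot (iWAT, inguinal), a brown depot (iBAT, interscapular) and the liver were sequenced as bulk poly(A) RNA, giving 30 libraries in 6 groups. Values are in TPM, that is, each gene's length-corrected share of the transcripts of a library, and reads per library are not given with the table, so precision rests on the spread between mice. A share can also move because other transcripts move, and in bulk tissue fewer cells of a type and less RNA per cell cannot be told apart.

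Fabp1 itself was at 9165.5 to 12697.6 TPM in WT liver and at 0.2 to 51.8 TPM in LFABP-/- liver. In iBAT it was at 0.2 to 8.7 TPM in WT and at 0.4 to 21.2 TPM in LFABP-/- libraries. LFABP-/- replicates 3, 4 and 5 (21.2, 15.0 and 13.1 TPM) were above every WT library there. In iWAT the library labelled LFABP-/- replicate 1 held 196.1 TPM, above every WT library (1.9 to 23.9 TPM), whereas the other 4 were at 0.2 to 0.9 TPM. That library also had the highest hepatocyte marker score of iWAT, 6.91 on a mean log2 scale, against 1.33 to 4.67 in all other iWAT libraries. Marker genes of WT mice fitted the labelled tissues, with Ucp1 at a mean of 4794 TPM in iBAT and 6.8 TPM in iWAT. Alb was at 70672 TPM in WT liver. In LFABP-/- iWAT Ucp1 averaged 205.7 TPM. The brown adipocyte score of LFABP-/- replicate 2 was 7.43 there, against 2.45 to 4.08 in every other iWAT library. Other tissues' markers also varied: on a mean log2 scale, 5 iWAT libraries (WT replicates 3 and 4, LFABP-/- replicates 2, 3 and 4) had lymphocyte scores of 4.48 to 6.18, against 0.60 to 1.25 in the other 5, and skeletal muscle scores in iBAT ran from 3.10 to 9.53. The hepatocyte score of iBAT was -0.23 to 2.48 in WT and 3.37 to 6.60 in LFABP-/- libraries, without overlap, and Alb averaged 22.6 and 533 TPM there. Mitochondrially encoded genes took 53.3% to 60.1% of the value in iBAT, 13.2% to 20.6% in iWAT, 12.1% to 15.1% in WT liver and 16.9% to 18.1% in LFABP-/- liver, so any shared scale leaves less room for nuclear genes in iBAT.

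The 93 genes were among the most abundant transcripts of all 3 tissues. Their median level was 168 TPM in iWAT, 372 TPM in iBAT and 139 TPM in liver, which put the median gene at the 94.7th, 98.2nd and 93.8th percentile of the genes tested there. Summed, they held 21149 ± 2407 TPM in WT iWAT, 47385 ± 1763 TPM in WT iBAT and 16044 ± 887 TPM in WT liver (SD, n = 5), or 2.1%, 4.74% and 1.60% of a library. By complex, the median levels in iWAT, iBAT and liver were 145, 374 and 114 TPM for the complex I subunits, 226, 730 and 240 TPM for complex II, 260, 720 and 284 TPM for complex III, 252, 585 and 228 TPM for complex IV, and 184, 297 and 148 TPM for complex V. Assembly factors, which help build a complex without staying in it, were far lower, with medians of 15.9, 21.9 and 13.7 TPM for complex I and 19.9, 14.9 and 9.2 TPM for complex II.

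Much the same genes led in every tissue. The 5 highest in iBAT were Cox6a1 at 3738 ± 334 TPM, Atp5b at 2667 ± 196 TPM, Cox8a at 2251 ± 260 TPM, Atp5a1 at 1979 ± 119 TPM and Cox6b1 at 1779 ± 143 TPM (SD, n = 10, both genotypes). Cox6a1 and Cox8a are small complex IV subunits, and Atp5a1 and Atp5b form the catalytic head of ATP synthase. Cox8a (1753 TPM) and Cox6a1 (1677 TPM) led in iWAT, and Cox6a1 (1130 TPM) and Cox8a (745 TPM) in liver. Over the 93 genes, levels were ranked alike between tissues (Spearman's rho across genes 0.91 for iBAT and iWAT, 0.91 for iBAT and liver, 0.95 for liver and iWAT).

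**Figure D1:**
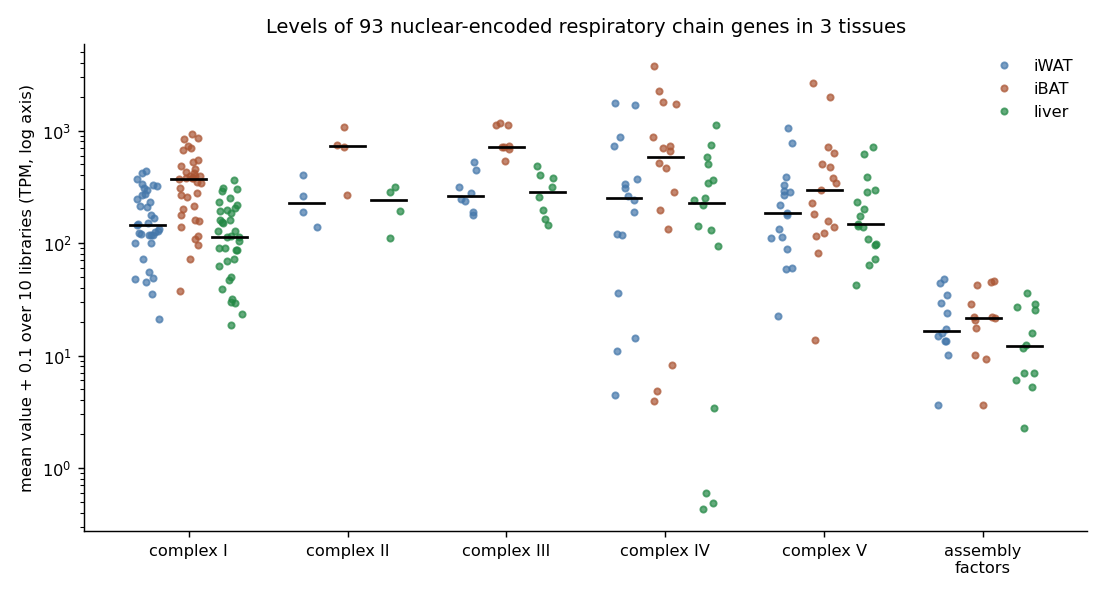
Mean level plus 0.1 of each of the 93 genes (TPM, log axis) over the 10 libraries of a tissue, by complex, with assembly factors set apart, where each point is a gene and each bar a median. Subunits of every complex lie highest in iBAT (median over all 93 genes 372 TPM, against 168 TPM in iWAT and 139 TPM in liver), and assembly factors lie lowest in each tissue.

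The spread between mice was smaller for these genes than for genes at large in 5 of the 6 groups. The sets were not matched for level. Median levels in iWAT, iBAT and liver were 168, 372 and 139 TPM for the members and 14.9, 7.63 and 9.11 TPM for all genes tested. The part of level in the smaller spread was not tested. The median SD of log2 values was 0.073 in WT iBAT and 0.078 in LFABP-/- iBAT, against 0.14 and 0.16 over all genes tested there. In iWAT it was 0.19 and 0.24, against 0.31 and 0.30. WT liver gave 0.098 against 0.20, and LFABP-/- liver gave 0.165 against 0.16, with replicates 4 and 5 carrying the highest summed levels there (19632 and 19771 TPM, against 15953 to 16912 TPM in the other 3).

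Between tissues, iBAT stood above both others for most of the chain. Of the 93 genes, 80 had their highest mean in iBAT, 10 in iWAT and 3 in liver. For 67 genes the order was iBAT, iWAT, liver, and for 13 it was iBAT, liver, iWAT. All 10 iBAT libraries lay above all 20 others for 69 genes, against 2.42% of all genes, and all 10 liver libraries lay below all others for 22 genes, against 17% of all genes.

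Tested against iWAT in a single limma fit over the 30 libraries, the mouse being a random block, 77 of the 93 genes were higher in iBAT and 10 were lower at a Benjamini-Hochberg adjusted p under 0.1, whereas 7.49% of all 15564 genes were higher and 85.3% were lower. The median log2 difference was 1.07 over the members and -1.35 over all genes, and the SD of the members' median over the 10 mice was 0.187. Cox6a2, taken up with the isoforms, lay farthest above (4.18, SE 0.61), and core enzymes came next. Uqcrc1, a core protein of complex III, was at 177 ± 29 TPM in iWAT and 723 ± 101 TPM in iBAT (SD, n = 10; log2 difference 2.03, SE 0.07, adjusted p = 2.6e-20). Cox5a, a complex IV subunit, differed by 1.97 (SE 0.07), Sdhb, the iron-sulphur subunit of complex II, by 1.93 (SE 0.08), Uqcrc2, the other core protein of complex III, by 1.88 (SE 0.08) and Ndufv1, the NADH-binding subunit of complex I, by 1.73 (SE 0.07). Rescaled without mitochondrially encoded genes the counts were 89 higher and 3 lower, with a median of 2.03, against -0.56 over all genes.

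The 10 genes lower in iBAT than in iWAT on the deposited values were mostly not core enzymes. Ndufa4l2 (-1.96, SE 0.14) and Cox4i2 (-1.72, SE 0.19), both isoforms known to be induced by low oxygen, fell most, followed by Atp5g3 (-1.48, SE 0.09) and Atp5g1 (-1.19, SE 0.34), which encode the membrane ring of ATP synthase. Sdhaf2, a factor that helps attach flavin to complex II, differed by -0.75 (SE 0.05). The other 5 were Atp5j, Ndufaf3, Cox7a2l, Sdhaf1 and Ndufaf8, at -0.47 to -0.16. Most of these directions depended on the scale. Without mitochondrially encoded genes Ndufa4l2 (-1.05), Cox4i2 (-0.85) and Atp5g3 (-0.52) were still called lower, Atp5g1 (-0.29) was not called, and Sdhaf2 (0.17) and the other 5 were higher. Under median-ratio scaling Ndufa4l2 (-0.54) was the only one called lower.

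Against liver, 89 genes were higher in iBAT and 4 were lower (all genes: 37.4% higher, 40.5% lower), with a median log2 difference of 1.42, against -0.04 over all genes and an SD over mice of 0.203. The 4 lower genes were Atp5g1 (-2.88, SE 0.34), Atp5g3 (-1.49, SE 0.09), Atp5j (-0.42, SE 0.07) and the assembly factor Ndufaf6 (-0.24, SE 0.07). Atp5g1 (-1.97) and Atp5g3 (-0.51) were also called lower without mitochondrially encoded genes, where the other two were higher. Ndufb8, an accessory complex I subunit, was among the genes farthest above (2.40, SE 0.08), as was Uqcrc1 (2.31, SE 0.07). Both iBAT contrasts kept most members higher under every scaling tried.

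Liver against iWAT was a different case. On the deposited values 11 genes were higher and 66 lower in liver (all genes: 13.8% higher, 80.9% lower), with a median of -0.39 for the members and -1.27 for all genes, and an SD over mice of 0.232. Scaled by median ratios, which sets the typical gene equal, 83 were higher and 4 lower with a median of 0.98, so the direction for the chain as a whole depended on the scale. Atp5g1 was higher in liver by 1.69 (SE 0.34), Ndufaf6 by 0.77 (SE 0.07) and Uqcrq, a small complex III subunit, by 0.74 (SE 0.09), whereas Cox4i2 was lower by a log2 difference of -4.17 (SE 0.19) and Ndufa4l2 by -3.16 (SE 0.14).

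The c subunit, the proton-carrying ring of ATP synthase, is made from 3 genes that encode the same mature protein with different import signals. Atp5g3 was the main source in iWAT and liver, with 64.8% and 64.4% of the summed value of the 3, and Atp5g2 in iBAT, with 54.7% against 41.5% for Atp5g3 and 3.82% for Atp5g1. On the deposited values the sum was 331 ± 36 TPM in iBAT, 592 ± 56 TPM in iWAT and 600 ± 80 TPM in liver (SD, n = 10), whereas Atp5a1 and Atp5b of the same enzyme were both 2.58-fold higher in iBAT than in iWAT. Rescaled without mitochondrially encoded genes the sum was 771 ± 79 in iBAT, 711 ± 72 in iWAT and 714 ± 111 in liver, so the order of the tissues depended on the scale. Atp5g2 was at 184 ± 19 TPM in iWAT, 180 ± 7.7 TPM in iBAT and 141 ± 20 TPM in liver as deposited, and higher in iBAT than in iWAT by a log2 difference of 0.93 (SE 0.07) once rescaled. Atp5g3 was at 386 ± 67, 138 ± 19 and 387 ± 56 TPM, with no overlap between iBAT (114.9 to 176.4 TPM) and either other tissue (280.7 TPM and up) on the deposited scale. Rescaled, its iBAT libraries (268 to 387) overlapped those of iWAT (324 to 605) and liver (368 to 590).

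Atp5g1 in iBAT varied along with the skeletal muscle score. It was at 3.0, 6.1, 11.1, 25.5 and 42.4 TPM in WT and at 5.0, 8.9, 9.5, 1.9 and 22.2 TPM in LFABP-/- iBAT. Cox6a2, the heart and muscle form of Cox6a, was at 22.2, 51.2, 114.6, 286.3 and 391.1 TPM in WT and at 36.2, 73.4, 94.5, 7.5 and 255.4 TPM in LFABP-/- iBAT. WT replicate 5 was highest and LFABP-/- replicate 4 lowest for both genes, and these were also the iBAT libraries with the highest and the lowest skeletal muscle score (9.53 and 3.10). All 10 libraries had the same order for Cox6a2 and the muscle score. Acta1, the main actin of skeletal muscle, averaged 3543 TPM in WT and 1521 TPM in LFABP-/- iBAT. The part of muscle RNA in the level of Cox6a2 and Atp5g1 was not tested beyond this order.

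Promoter sequence is shown for Atp5g1 and Atp5g3, whose order between the tissues differed most from the rest of ATP synthase, in the exon-free stretch before the start site (RefSeq, GRCm38.p6), 5′ to 3′. Capitals mark a match to TNAAGGTCA, the element of estrogen-related receptors, or its reverse complement. Atp5g1 lies on the minus strand of chromosome 11 (chr11:96075671-96075881, 211 bases) and Atp5g3 on the minus strand of chromosome 2 (chr2:73911327-73911576, 250 bases). Atp5g3 holds a match on the other strand, beginning 52 bases before the start site, and the stretch of Atp5g1 holds none of the 4 motifs searched.
Atp5g1: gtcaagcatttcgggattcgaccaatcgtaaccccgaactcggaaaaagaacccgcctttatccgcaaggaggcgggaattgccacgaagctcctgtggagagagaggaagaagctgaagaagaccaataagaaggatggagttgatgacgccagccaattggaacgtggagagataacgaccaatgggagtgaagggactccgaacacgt
Atp5g3: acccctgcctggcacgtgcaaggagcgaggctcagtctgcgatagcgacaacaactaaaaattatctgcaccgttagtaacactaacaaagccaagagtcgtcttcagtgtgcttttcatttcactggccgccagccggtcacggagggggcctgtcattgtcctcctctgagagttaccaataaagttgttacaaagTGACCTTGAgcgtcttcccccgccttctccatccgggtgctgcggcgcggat

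Alternative isoforms were small shares of their pair in most groups. Cox4i2 was 1.4% of the Cox4 pair in WT iWAT, 0.25% in WT iBAT and 0.059% in WT liver. Ndufa4l2 was 7.8% of the sum with Ndufa4 in WT iWAT and 11.5% in LFABP-/- iWAT, against 1.1% in WT iBAT and 1.2% in WT liver. Cox6b2, known from testis, stayed under 1% of its pair in every library. Cox7a2l, classed above as a supercomplex factor and not as an isoform, was 47.7% of its sum with Cox7a2 in WT iWAT, 26.8% in WT iBAT and 37.7% in WT liver. For comparison, the excluded isoforms were the main forms in iBAT: Cox7a1 was 73.0% of its sum with Cox7a2 and Cox8b 70.9% of its sum with Cox8a in WT, and in LFABP-/- iBAT they were 74.1% and 71.8%.

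**Figure D2:**
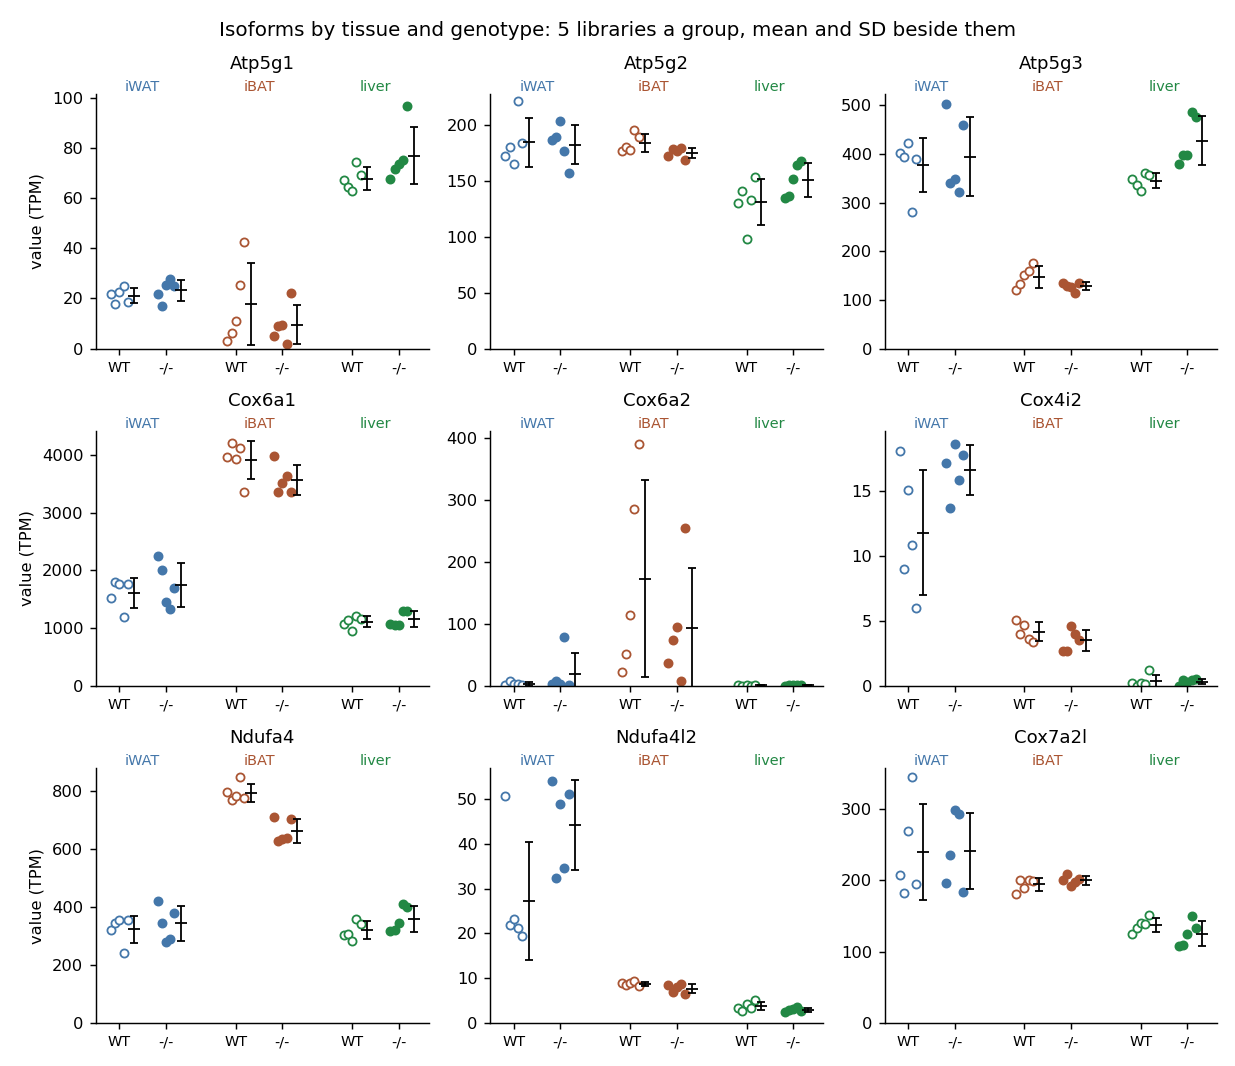
Levels (TPM) of the c-subunit genes and of isoforms of complex IV in the 5 libraries of each tissue and genotype, open for WT and filled for LFABP-/-, with the mean and SD beside them and an SD bar that would pass below 0 cut at the axis. On this scale Atp5g3 is lowest in iBAT (138 TPM over both genotypes), Cox6a2 spreads from 7.5 to 391.1 TPM among iBAT libraries, and Ndufa4l2 and Cox4i2 are highest in iWAT.

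The genotype comparison asks whether loss of LFABP on the high-fat diet changed the chain in each tissue. In iWAT, limma called 0 of the 93 genes in either direction, where 0.682% of 14668 genes were called higher and 0.77% lower. At an unadjusted p under 0.05, 4 genes were higher and 0 lower. A total of 80 genes had a positive difference, with a median log2 difference of 0.09, against 0.05 over all genes. The summed level was 21149 ± 2407 TPM in WT and 22450 ± 3424 TPM in LFABP-/- iWAT, a difference within the spread between mice. Fits with the lymphocyte score as a covariate and with all 30 libraries called 4 and 3 genes higher, where 3.7% and 2.98% of all genes were higher, and leaving out any 1 library called 0 or 1. Leaving out the library labelled LFABP-/- replicate 1 left 63 of the 93 differences positive, with a median of 0.03. Without LFABP-/- replicate 2, the library with the highest brown adipocyte score of iWAT, 74 were positive, with a median of 0.07.

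The 4 genes with the lowest unadjusted p in iWAT were 2 accessory complex I subunits, an isoform and a small ATP synthase subunit. Ndufb7 was at 45.0, 40.8, 48.1, 42.0 and 41.5 TPM in WT and at 56, 49.1, 50, 47.9 and 53.5 TPM in LFABP-/- iWAT. The groups touched at 1 library each (log2 difference 0.24, SE 0.08, adjusted p = 0.273). Ndufa4l2 was at 50.7, 21.9, 23.3, 21.1 and 19.4 TPM in WT and at 54.1, 32.4, 49.0, 34.7 and 51.3 TPM in LFABP-/- iWAT, so WT replicate 1 alone sat among the LFABP-/- values. Its log2 difference was 0.76 (SE 0.26, adjusted p = 0.297), and without WT replicate 1 it was 1.00 with an adjusted p of 0.034. Ndufa11 differed by 0.27 (adjusted p = 0.384) and Atp5l by 0.22 (adjusted p = 0.474).

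In iBAT, loss of LFABP went with changes in both directions and no shift of the chain as a whole. Of the 93 genes, 13 were higher (14%) and 21 lower (22.6%) in LFABP-/- mice, where 22.3% of 11614 genes were higher and 25.5% lower. The median log2 difference was -0.04, against -0.03 over all genes, and 38 differences were positive. The summed level was 47385 ± 1763 TPM in WT and 45596 ± 1886 TPM in LFABP-/- iBAT. Values of the groups did not overlap for 6 higher and 12 lower members, against 12.1% and 14.3% of all genes. The split depended on the scale, with 23 higher and 15 lower under median-ratio scaling (all genes: 28.4% and 22.5%) and 8 higher and 34 lower without mitochondrially encoded genes (all genes: 18% and 30.8%).

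By complex, complex I had 8 higher and 6 lower of 44, complex II 1 and 1 of 8, and complex III 3 and 2 of 8. Complex IV had 0 and 7 of 16, and complex V 1 and 5 of 17, where 22.3% of all genes were higher and 25.5% lower. In limma 31.8%, 25%, 62.5%, 43.8% and 35.3% of complexes I to V had an unadjusted p under 0.05, against 48.3% of all genes. The summed level of complex IV was 14728 ± 731 TPM in WT and 13366 ± 611 TPM in LFABP-/- iBAT, while that of complex III was 6751 ± 190 and 6801 ± 347 TPM (SD, n = 5). Of the 8 complex I assembly factors 4 were higher and 0 lower, of the 36 complex I subunits 4 were higher and 6 lower, and of the 7 core subunits only Ndufv1 was called. Beside these counts stands the brown adipocyte score, at 8.6 to 9.1 in WT and 9.6 to 10.1 in LFABP-/- iBAT, without overlap. All its markers except Cox7a1 and Cox8b had a higher mean in LFABP-/- iBAT, and it was not used as a covariate. The hepatocyte score also separated the iBAT genotypes, with all 8 of its markers at a higher mean in LFABP-/- iBAT. With that score as a covariate, an alternative chosen after seeing the data, 0 members were higher and 1 lower, and 1.03% and 3.1% of all genes were called, so score and genotype cannot be told apart for the rest.

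Members called higher in LFABP-/- iBAT included the large proteins of complex III. Uqcrc1 (chromosome 9, 108936633 to 108949623) was at 674.4, 685.5, 618.0, 667.7 and 553.3 TPM in WT and at 829.3, 872.4, 821.5, 765.6 and 740.8 TPM in LFABP-/- iBAT. Every LFABP-/- library was above every WT library (log2 difference 0.33, SE 0.07, limma adjusted p = 0.00515). Uqcrc2 rose by 0.18 (SE 0.06, adjusted p = 0.0312) and Uqcrfs1, the Rieske iron-sulphur protein, by 0.22 (SE 0.07, adjusted p = 0.0372). Sdhb rose by 0.16 (SE 0.06, adjusted p = 0.0432) and Atp5d, the delta subunit of the ATP synthase stalk, by 0.18 (SE 0.06, adjusted p = 0.0429).

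The 4 complex I assembly factors called higher were Ndufaf1, Ndufaf2, Ndufaf4 and Ndufaf6. Ndufaf1, needed early in building the membrane arm, was at 37.5, 39.0, 40.7, 42.2 and 39.7 TPM in WT and at 56.1, 55.1, 53.6, 48.2 and 50.1 TPM in LFABP-/- iBAT. Ndufaf2, a late assembly factor, was at 8.7, 9.1, 8.9, 8.8 and 8.3 TPM and at 12.2, 10.8, 11.3, 11.3 and 10.7 TPM. Neither gene's groups overlapped, and the log2 differences were 0.40 (SE 0.06, adjusted p = 0.000705) and 0.34 (SE 0.05, adjusted p = 0.000886). Ndufaf4 (0.29, adjusted p = 0.0238) and Ndufaf6 (0.26, adjusted p = 0.0366) also rose, with overlapping groups. Among accessory subunits, Ndufa11 was at 191.8, 196.0, 183.0, 207.3 and 187.8 TPM in WT and at 233.3, 254.5, 221.1, 249.3 and 228.8 TPM in LFABP-/- iBAT, again with no overlap (0.30, SE 0.06, adjusted p = 0.00267). Ndufb4 (0.14), Ndufab1 (0.21), the mitochondrial acyl carrier protein, and Ndufa9 (0.14) were the other higher members.

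Lower members were mostly small subunits. Ndufa1 (X chromosome, 37187588 to 37191163), an accessory subunit of the complex I membrane arm, was at 992.7, 1014.6, 1037.6, 975.4 and 936.2 TPM in WT and at 765.3, 661.7, 703.6, 708.1 and 690.3 TPM in LFABP-/- iBAT. The lowest WT library was well above the highest LFABP-/- library, and the log2 difference was -0.49 (SE 0.05, limma adjusted p = 0.00016, exact permutation p = 0.00794, the smallest that 5 against 5 allows). It was the only member called under every alternative tried in iBAT, the hepatocyte score included. Of the other complex I members, Ndufa7 (-0.22), Ndufb3 (-0.23), Ndufs5 (-0.16), Ndufa13 (-0.15) and Ndufv1 (-0.14) fell.

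In complex IV, Cox6c was at 323.4, 309.0, 309.7, 331.6 and 315.8 TPM in WT and at 265.4, 234.2, 243.0, 247.7 and 255.5 TPM in LFABP-/- iBAT. Ndufa4, named for complex I but a subunit of complex IV, was at 797.1, 771.1, 782.5, 848.8 and 776.7 TPM and at 713.1, 629.5, 635.9, 637.5 and 703.7 TPM. The groups of both genes were apart, with log2 differences of -0.35 (SE 0.05, adjusted p = 0.000509) and -0.26 (SE 0.05, adjusted p = 0.00434). Cox7c (-0.22), Cox7b (-0.15), Cox6b1 (-0.17), Cox8a (-0.21) and Ndufa4l2 (-0.19, just inside the threshold) were the others called lower. The nuclear-encoded subunits Cox4i1 and Cox5a were not called. The other 3 lower members outside complexes I, IV and V were Sdhaf4 (-0.23), an assembly factor of complex II, Uqcrh (-0.18), the hinge protein of complex III, and Uqcr11. Uqcr11, the smallest subunit of complex III, was at 1251.6, 1229.2, 1181.1, 1276.9 and 1226.1 TPM in WT and at 1057.2, 949.4, 1005.1, 1026.7 and 1000.0 TPM in LFABP-/- iBAT, without overlap (-0.29, SE 0.05, adjusted p = 0.00101).

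Of the 17 complex V genes, 1 was called higher and 5 lower, where 22.3% and 25.5% of all genes were. Atp5k, subunit e of the membrane part, was at 771.0, 809.4, 791.3, 843.3 and 826.1 TPM in WT and at 657.9, 601.4, 606.4, 663.7 and 633.6 TPM in LFABP-/- iBAT. Atp5j, coupling factor 6 of the outer stalk, was at 81.5, 90.4, 85, 101.7 and 111.6 TPM and at 71.8, 64.7, 68.1, 65.0 and 77.8 TPM. Both fell without overlap, by -0.35 (SE 0.05, adjusted p = 0.000522) and -0.43 (SE 0.09, adjusted p = 0.00529). Atp5j2 (-0.19), Atp5e (-0.20) and Atp5mpl (-0.16) were also lower, whereas Atp5a1, Atp5b and the 3 c-subunit genes were not called.

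**Figure D3:**
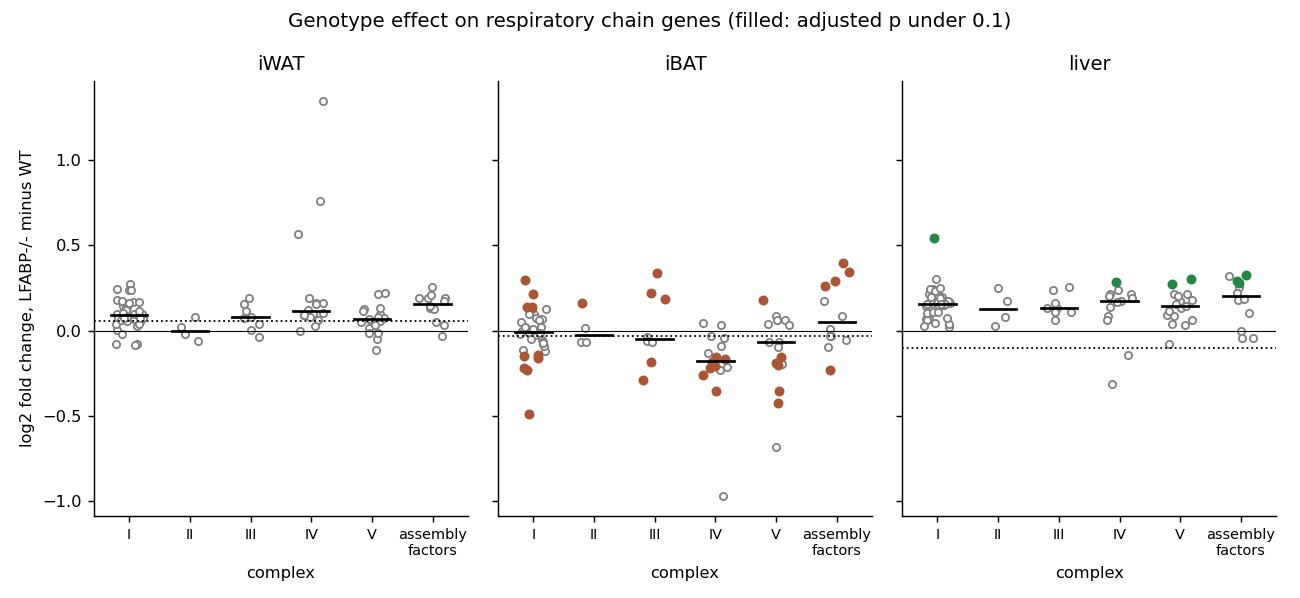
Log2 difference of LFABP-/- minus WT for each of the 93 genes (90 in liver) by complex, assembly factors apart, in iWAT, iBAT and liver, with called genes filled, medians as bars and the median of all genes as a dotted line. In iBAT 13 genes are called above 0 and 21 below (all genes: 22.3% and 25.5%), with 0 of the 16 complex IV genes above. In liver 7 are called above 0 and 0 below (all genes: 3.08% and 13.9%).

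The iBAT differences were ordered by coding length. Over the 93 genes, Spearman's rho between log2 difference and coding length was 0.66, a description across genes that share libraries, against -0.08 over 10965 other protein-coding genes. The 32 shortest members (156 to 333 bases) had 0 higher and 18 lower, with a median of -0.17. The 30 members of middle length (336 to 516 bases) had 5 higher and 2 lower, and the 31 longest (519 to 2181 bases) had 8 higher and 1 lower, with medians of -0.04 and 0.06. Other genes of the shortest class (359) showed no such tilt, with 19.8% higher, 20.6% lower and a median of -0.02. In iWAT the same rho was -0.31 over the members and -0.17 over other protein-coding genes, and in liver -0.12 and -0.33. With the length trend of all genes removed, the members' rho was -0.13 in iWAT and 0.31 in liver. Over all alternatives in iBAT it ran from 0.588 to 0.689, and with that trend removed, an alternative chosen after seeing the data, the counts were 15 higher and 22 lower.

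**Figure D4:**
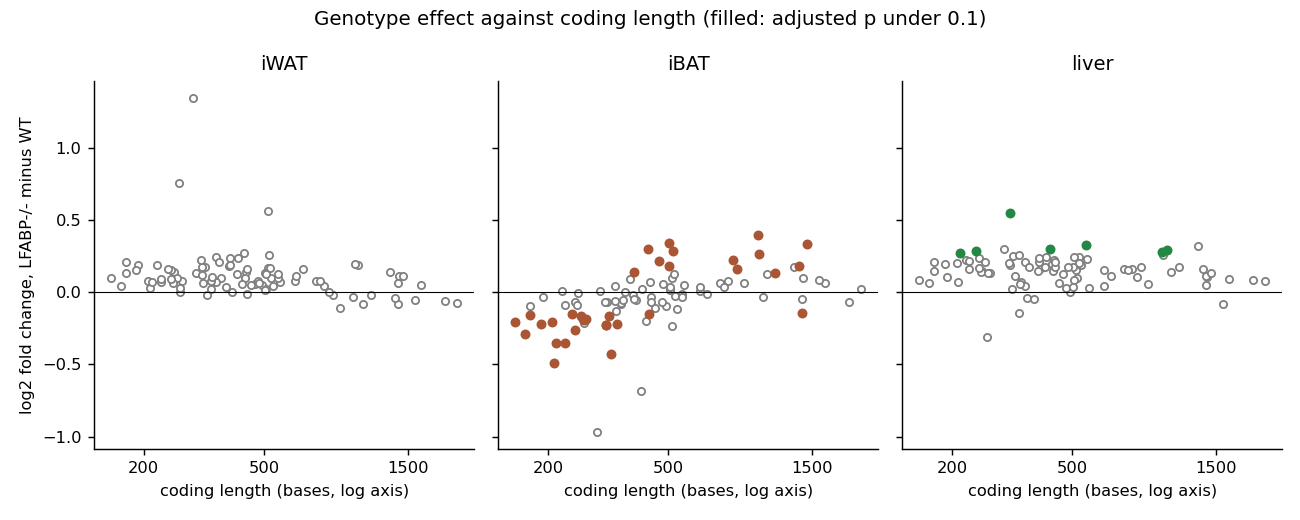
Log2 difference of LFABP-/- minus WT against coding length (bases, log axis) in iWAT, iBAT and liver, with each point a gene and called genes filled. In iBAT the 18 called among the 32 shortest genes all lie below 0, and 8 of the 9 called among the 31 longest lie above.

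In liver the chain leaned upwards. Of the 90 members tested, 7 were higher in LFABP-/- mice (7.78%) and 0 were lower, where 3.08% of 11629 genes were higher and 13.9% lower. At an unadjusted p under 0.05, 22 were higher and 0 lower in limma. In every other fit run, 0 were called lower at the adjusted threshold, and unadjusted counts were not taken. A total of 84 differences were positive, with a median of 0.16, against -0.10 over all genes. The background depended on coding length. Other protein-coding genes of the short, middle and long classes had medians of 0.06, 0.02 and -0.12, and members 0.18, 0.17 and 0.15. Of the other genes in the short class 6.05% were higher and 2.59% lower, against 2.73% and 15.2% in the long class. The summed level was 16044 ± 887 TPM in WT and 17729 ± 1833 TPM in LFABP-/- liver, and all 44 complex I differences were positive. LFABP-/- replicates 1, 2 and 3 (15953, 16376 and 16912 TPM) lay within the WT range of 14637 to 16946 TPM. Only replicates 4 and 5 (19632 and 19771 TPM) were above it. Without replicate 4 there were 83 positive differences (median 0.12), and without replicate 5 there were 79 (median 0.11). The count of higher members was 56 under median-ratio scaling (10% of all genes), 16 without mitochondrially encoded genes (3.69%) and 4 with the replicate number as a block (2.26%).

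Ndufb3, an accessory subunit of the complex I membrane arm (chromosome 1, 58586384 to 58595964), was at 115.0, 95.8, 109.9, 100.7 and 91.9 TPM in WT and at 137.9, 134.6, 134.3, 179.7 and 166.8 TPM in LFABP-/- liver. Ndufaf1 was at 24.5, 24.5, 24.7, 23.1 and 25.0 TPM and at 29.6, 27.8, 30.8, 31.1 and 28.8 TPM. Neither gene's groups overlapped, and the log2 differences were 0.55 (SE 0.11, limma adjusted p = 0.0161) and 0.28 (SE 0.06, adjusted p = 0.0253). These were the only called members that stayed called whichever single library was left out.

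Atp5g3 was at 348.0, 337.3, 323.3, 361.8 and 356.5 TPM in WT and at 380.1, 398.4, 398.5, 486.3 and 476.4 TPM in LFABP-/- liver. Atp5k was at 275.5, 257.6, 254.5, 281.9 and 267.5 TPM and at 284.7, 286.7, 333.1, 350.5 and 369.4 TPM. The groups were apart for both, with LFABP-/- replicates 4 and 5 highest or next to highest (0.30, adjusted p = 0.0556, and 0.27, adjusted p = 0.0782). Ndufaf3 (0.33, adjusted p = 0.053), Ndufaf5 (0.29, adjusted p = 0.0721) and Cox7b (0.28, adjusted p = 0.0937) completed the 7. Without LFABP-/- replicate 4, without LFABP-/- replicate 5 or without WT replicate 2, the calls of all 5 of these genes were lost.

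**Figure D5:**
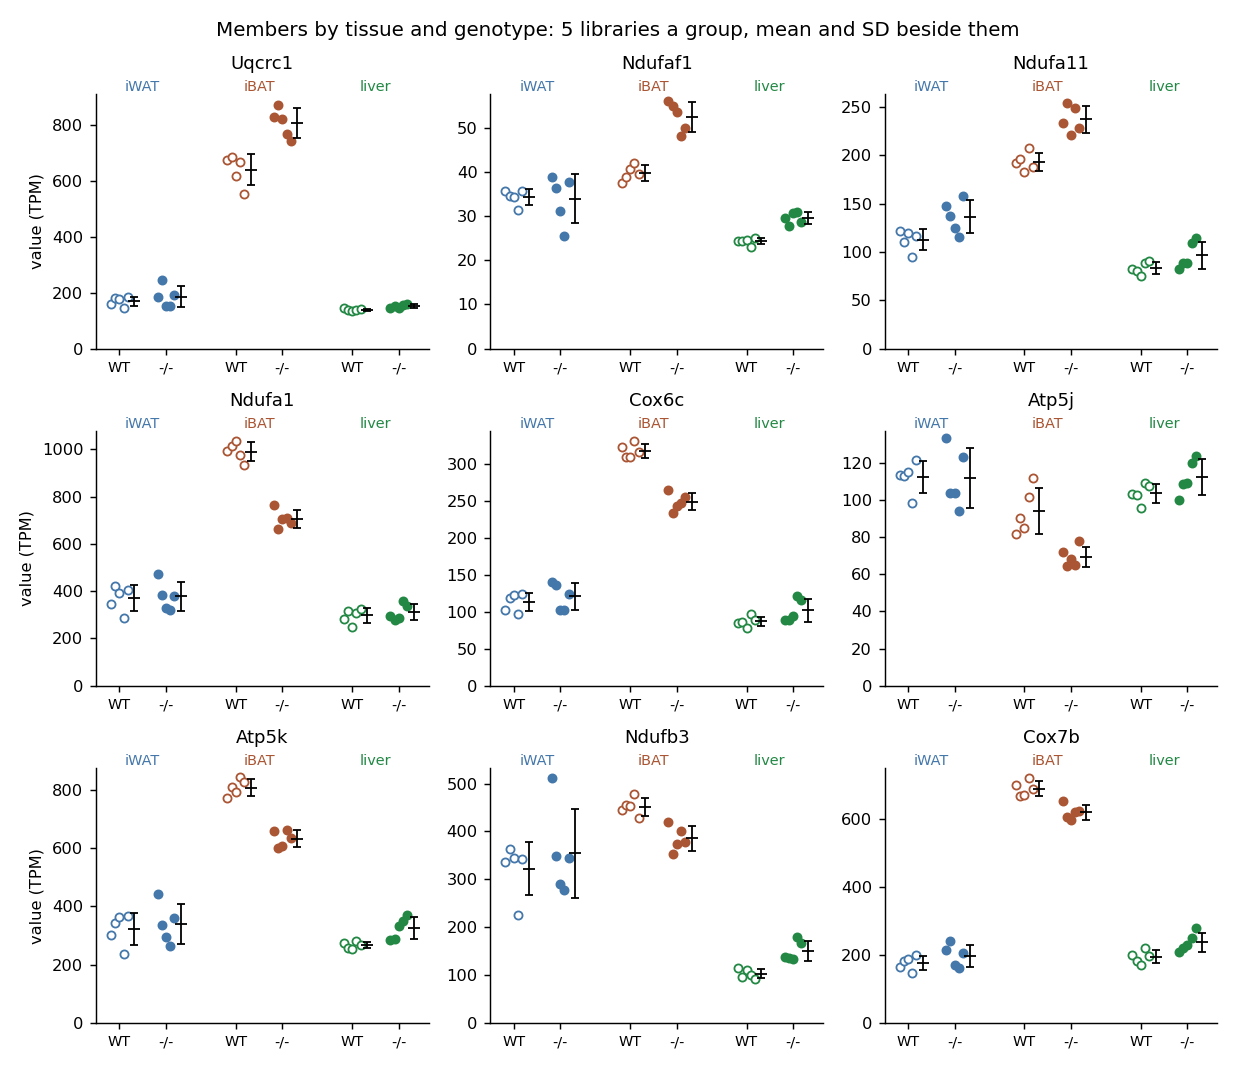
Values (TPM) of 9 called members in the 5 libraries of each tissue and genotype, open for WT and filled for LFABP-/-, with the mean and SD beside them. In iBAT, Ndufa1, Cox6c, Atp5j and Atp5k are lower and Uqcrc1, Ndufaf1 and Ndufa11 higher in every LFABP-/- library than in any WT library, and in liver Ndufb3 and Ndufaf1 are higher.

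Because the tissues came from the same mice, the genotype effects themselves were compared. The effect in iBAT differed from that in iWAT for 5 members (11.2% of all genes), from that in liver for 10 members (15.1% of all genes), and liver from iWAT for 1 (3.54% of all genes). Ndufb3 was lower in LFABP-/- iBAT (444.7, 454.2, 454.1, 479.2 and 427.4 TPM in WT, 420.7, 353.1, 374.4, 400.4 and 378.6 TPM in LFABP-/- mice) and higher in LFABP-/- liver, a difference of effects of -0.78 on the log2 scale (SE 0.19, limma adjusted p = 0.00803). Atp5k (-0.63, adjusted p = 0.012) and Cox7b (-0.44, adjusted p = 0.0407) were likewise called lower in iBAT and higher in liver. Ndufaf1 was the only member called higher in both iBAT and liver. Its effect was larger in iBAT than in iWAT by 0.43 (SE 0.11, adjusted p = 0.021).

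The other genes that serve the chain were read from lists, whose counts stand beside 22.3% higher and 25.5% lower of all genes in iBAT, 3.08% and 13.9% in liver and 0.682% and 0.77% in iWAT. Of 13 mitochondrially encoded subunits, 11 were higher and 0 lower in LFABP-/- liver (median 0.40), led by mt-Nd6 at 3425 ± 349 and 5398 ± 355 TPM (0.66). In iBAT 2 were higher, mt-Nd2 and mt-Nd1 (both 0.32), and 2 lower, mt-Cytb (-0.51) and mt-Co3 (-0.41), and in iWAT limma called 0, with 0 at an unadjusted p under 0.05. Among 10 electron carriers and related genes, Cycs, cytochrome c, rose in iBAT (125.5 ± 3.5 and 156.1 ± 12.7 TPM, 0.31) and in liver (20.4 ± 2.4 and 28.3 ± 3.7 TPM, 0.46). Coq10b, which binds ubiquinone, rose in iBAT (10.2 ± 1.2 and 21.9 ± 2.4 TPM, 1.07) while its paralog Coq10a fell (-0.62), and the list's counts there were 4 higher and 1 lower.

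Ubiquinone synthesis genes were 6 higher and 0 lower of 11 in LFABP-/- iBAT (all genes: 22.3% and 25.5%), with Pdss1, which makes the side chain, at 0.50. Of 17 genes of the tricarboxylic acid cycle, 7 were higher and 2 lower in iBAT, led by citrate synthase Cs (553 ± 54 and 783 ± 74 TPM, 0.50), and 2 were higher and 2 lower in liver, among them Fh1 (0.53) and Ogdh (-0.28). Assembly factors outside the name rule were 8 higher and 7 lower of 38 in iBAT, near or under the shares of all genes, with Cox19 at 0.77 and Cox14 at -0.70, and 5 higher and 0 lower of 37 in liver, with Sco2, a copper chaperone of complex IV, at 51.6 ± 15.6 and 120.5 ± 22.1 TPM (1.24).

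Among transcriptional regulators of the chain, Ppargc1a, the PGC-1alpha coactivator, was at 14.7 ± 3.1 TPM in WT and 56 ± 29 TPM in LFABP-/- iBAT (1.79, adjusted p = 0.00142). Esrra, estrogen-related receptor alpha, was at 33.7 ± 4.2 and 105.1 ± 21 TPM in iWAT (1.61, adjusted p = 0.00128), at 98.3 ± 6.2 and 111.8 ± 8.6 TPM in iBAT (0.18, adjusted p = 0.0524) and at 33.1 ± 1.6 and 51.8 ± 7.3 TPM in liver (0.63, adjusted p = 0.00967). Nrf1 (-0.43) and Tfb1m (-0.43) fell in iBAT and Yy1 (-0.45) and Gabpa (-0.39) in liver. The list's counts were 1 higher and 0 lower of 15 in iWAT, 5 and 2 of 16 in iBAT and 2 and 4 of 14 in liver.

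Promoters were searched on both strands for motifs of these regulators in the RefSeq windows of 300 bases (250 before and 50 after the start), which 77 of the 93 genes have. GCATGCGC, the NRF1 core, was in 12 member promoters (15.6%) and in 2.8% of all 27025, AAGATGGC (YY1) in 13% and 2.88%, TNAAGGTCA in 3.9% and 1.26%, and CCGGAAGT (GABP) in 6.49% and 4.0%. Any of these was in 37.7% of member promoters and 10.4% of all. Among members with a promoter, the NRF1 motif was in 4 of 11 called higher, 2 of 18 called lower and 6 of 48 not called in iBAT. Ndufa11, called higher there, holds the motif on both strands, overlapping in a palindrome shown in capitals, in the exon-free stretch before its start (chr17:56717686-56717761, plus strand, 76 bases, RefSeq GRCm38.p6).
Ndufa11: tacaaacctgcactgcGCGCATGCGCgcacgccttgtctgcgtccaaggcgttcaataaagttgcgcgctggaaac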

How the data were processed

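RNA-seq values of 30 libraries (iWAT, iBAT and liver of 5 WT and 5 LFABP-/- mice, grouped by the labels) were used. The authors selected poly(A) RNA, mapped single reads (CLC Genomics Workbench; GRCm38, genes of Ensembl) and deposited 1 table of values per gene. The deposited values carry an RPKM header but reach nearly the same total (999967 to 999996) in every library, so they were treated as TPM. They are rounded to 1 decimal, and a read count per library is not given. No pair of libraries of a group shared more than 5.08% of values.

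Within a tissue, genes with a mean of at least 1 entered limma 3.58.1 (R 4.3.3) as log2(value + 0.5), with an intensity trend and two-sided tests, with p Benjamini-Hochberg adjusted over all genes, and were called at an adjusted p under 0.1. Fold changes of low genes are understated on this scale. Tissue contrasts and differences of genotype effects came from a joint fit over the 30 libraries, in which the mouse was a random block (statmod 1.5.0). That fit has a single residual variance per gene for all tissues. Its SE and p therefore also carry the spread of the tissue outside a contrast. For Atp5g1 the SD was 3.6 TPM in iWAT, 12.8 TPM in iBAT and 9.5 TPM in liver. Exact permutation tests were two-sided. Marker scores are means of log2(value + 0.5). The scripts were tested on simulated data. Genes are named by rule: called members, the smallest p per direction, isoform families, core subunits, extremes of a contrast, the highest levels, and up to 4 genes per related list. Any other was chosen after its values were seen. The members and lists were chosen with earlier results of these data known. A result on 1 gene is not reported here.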

Additional observations from a re-analysis of the deposited data

Results flagged for a closer look

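Groups of 5 libraries were checked for named genes and for the members' summed level. In 6 of 58 such groups, 1 library stood apart from the other 4 (Dixon's ratio above 0.71). Chance flags about 1 in 20 independent groups, and these groups share libraries. Among the members, Ndufa4l2 in WT replicate 1 of iWAT was at 50.7 TPM, against 19.4 to 23.3 TPM in the other 4 (ratio 0.875). Cox6a2 in LFABP-/- replicate 4 of iWAT was at 79.3 TPM, against 1.7 to 7.9 TPM (ratio 0.920), and that library also had the highest skeletal muscle score of iWAT, 7.10. Ndufaf1 in WT replicate 4 of liver was at 23.1 TPM, against 24.5 to 25.0 TPM (ratio 0.737). For Fabp1 the libraries were the one labelled LFABP-/- replicate 1 in iWAT (196.1 TPM against 0.2 to 0.9 TPM, ratio 0.996), WT replicate 3 in liver (9165.5 TPM against 11860.2 to 12697.6 TPM, ratio 0.763) and LFABP-/- replicate 1 in liver (51.8 TPM against 0.2 to 13.7 TPM, ratio 0.738).

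The genotype effect differed between tissues in 16 tests of members (limma, Benjamini-Hochberg adjusted p under 0.1, log2 scale). For iBAT minus iWAT the differences were -0.52 for Ndufa1 (adjusted p = 0.0336), 0.43 for Ndufaf1 (0.0210), -0.94 for Ndufa4l2 (0.0357), -0.44 for Cox6c (0.0512) and -0.41 for Atp5j (0.0564). For iBAT minus liver all 10 were negative: Ndufb3 -0.78 (adjusted p = 0.00803), Atp5k -0.63 (0.0120), Cox6c -0.57 (0.00819), Ndufa1 -0.56 (0.0147), Atp5j -0.54 (0.00843), Atp5g3 -0.50 (0.0644), Cox7b -0.44 (0.0407), Ndufa4 -0.43 (0.0833), Ndufaf3 -0.36 (0.0380) and Uqcrh -0.32 (0.0867). For liver minus iWAT it was -1.07 for Ndufa4l2 (adjusted p = 0.0426), a value that includes the high WT library of iWAT.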

How the results depend on the processing

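The tests rest on 5 mice a group. The members' counts kept their direction under both other pseudocounts, the filter at a mean of 20 and the name prefix of the mouse. For WT replicates 4 and 5 the iWAT sample names begin with G30, whereas the names for iBAT and liver of those mice begin with G32. The fit used G32 for them in every tissue, and a fit with the iWAT names' own prefix was not run. In iWAT 0 members were called, but 3 were higher in the fit of all 30 libraries and 4 with the lymphocyte score as a covariate. In iBAT the 13 higher became 23 under median-ratio scaling, 8 without mitochondrially encoded genes, 7 in the fit of all 30 libraries and 0 with the hepatocyte score. The 21 lower became 34, 8 and 1 in the last 3 of these, and the skeletal muscle score gave 11 and 20. In liver the 7 higher became 4 with no filter, 56 under median-ratio scaling, 16 without mitochondrially encoded genes, 2 at an adjusted p under 0.05 and 18 with the length trend removed. Among tissue contrasts, median-ratio scaling gave 1 lower and a median of 2.53 for iBAT minus iWAT, and reversed liver minus iWAT (83 higher, 4 lower, median 0.98). Values without mitochondrially encoded genes gave 3 lower (median 2.03) for iBAT minus iWAT, 2 lower (median 2.40) for iBAT minus liver, and 10 and 32 differences of genotype effect between iBAT and iWAT and between iBAT and liver. Apart from the rescalings, where the values themselves show the shift, and the stricter thresholds, the cause was not tested.

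Leaving out 1 library gave 0 to 1 higher and 0 lower in iWAT, where the 1 came without WT replicate 1. It gave 11 to 16 higher and 15 to 26 lower in iBAT, and 2 to 12 higher and 0 lower in liver. The liver count was 2 without WT replicate 2 or LFABP-/- replicate 4 or 5, 4 without WT replicate 3 or LFABP-/- replicate 3, and 12 without LFABP-/- replicate 1. Leaving out 1 mouse kept 76 to 77 higher and 9 to 10 lower (median 1.04 to 1.12) for iBAT minus iWAT, 89 higher and 4 lower (1.39 to 1.46) for iBAT minus liver, and 9 to 13 higher and 63 to 73 lower (-0.41 to -0.35) for liver minus iWAT. The iBAT calls of Ndufv1, Ndufa4l2, Cox8a and Atp5mpl were each lost on leaving out any of 7 or 8 libraries.

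The labels do not describe same-numbered mice of the genotypes as pairs. For replicates 1 to 5 in iWAT their deviations correlated at 0.50, -0.33, 0.51, 0.67 and 0.66, so most were positive there. The correlations were -0.53 to 0.51 in iBAT and -0.06 to 0.13 in liver. What same-numbered iWAT libraries share was not tested. With the replicate number as a block, 0 members were called in iWAT, 13 higher and 20 lower in iBAT, and 4 higher and 0 lower in liver, 3 of them also called without the block.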
